A study of Homo sapiens with 21 samples.

Results

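The 10 heat shock genes of human HepG2 cells are described here, HSF1, HSPA1A, HSPA1B, DNAJB1, HSPH1, HSP90AA1, HSPA8, HSPB1, BAG3 and HSPD1, across 7 caffeine doses. These 10 genes were chosen by symbol as cytosolic and mitochondrial heat shock genes, with earlier results of these data known, and all 10 were found among the 37637 features of the count table. HepG2 is an established line from a human hepatocellular carcinoma, and caffeine is a methylxanthine that blocks adenosine receptors and inhibits cyclic nucleotide phosphodiesterases. Cells were washed with PBS, moved from serum-containing medium to serum-free DMEM and held for 24 h with caffeine at 0 (control), 0.01, 0.1, 1, 10, 100 or 1000 µM, with 3 libraries in each of the 7 groups. All groups therefore shared the serum withdrawal, 1 cell line and 1 time, and differed by the labels only in caffeine. Cells were harvested with trypsin-EDTA, RNA was extracted with Trizol, and poly(A) RNA was taken on poly(dT) beads before cDNA synthesis with a SmartScribe kit.

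Heat shock genes encode chaperones, proteins that help others fold, refold or reach degradation. In the cytosol HSP70 proteins bind unfolded stretches of client proteins, J-domain proteins such as DNAJB1 deliver clients and stimulate ATP hydrolysis, HSP110 proteins such as HSPH1 exchange the nucleotide, and HSP90 proteins complete the folding of kinases and receptors. The transcription factor HSF1 is held inactive by chaperones in unstressed cells, and upon proteotoxic stress it binds heat shock elements, inverted repeats of nGAAn units, in the promoters of these genes. In the mitochondrial matrix HSPD1 (HSP60) works with its lid HSPE1 (HSP10) and the matrix HSP70 HSPA9 on imported proteins, and liver cells, which hold many mitochondria and secrete much protein, express most of these chaperones without stress.

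The heat shock elements in the members' own promoters are printed here because HSF1, the first of the 10 genes, acts through them. RefSeq promoters (build GRCh38.p14, 250 bases before to 50 after each start) were at hand for 9 of the 10 genes, with several windows for genes with several starts. Each window was searched on both strands for 2 units head to head (GAANNTTC) or tail to tail (TTCNNGAA), where N is any base, and for 3 units (GAANNTTCNNGAA, or TTCNNGAANNTTC on the other strand), a form that contains both 2-unit forms. At least 1 of the 2-unit forms lay in a window of 7 of the 9 genes (77.8%), against 4417 of 27305 genes with a RefSeq window (16.2%), and in 18 of the 44 genes with a window on a wider chaperone list (40.9%). By windows of this length, the head to head form was held by 6.77% of all 35116 windows, the tail to tail form by 7.74% and the 3-unit form by 0.49%. The windows of HSPH1 and BAG3 held neither 2-unit form. Every stretch of 30 bases before a start that held an element reads as follows, 5′ to 3′ on the gene's strand, with the GAA and TTC units in capitals.
HSPA1A: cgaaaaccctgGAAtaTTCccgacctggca
HSPA1B: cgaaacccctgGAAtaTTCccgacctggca
HSPA8, farther stretch: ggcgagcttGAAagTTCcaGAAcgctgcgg
HSPA8, nearer stretch: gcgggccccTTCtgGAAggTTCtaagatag
DNAJB1, farther stretch: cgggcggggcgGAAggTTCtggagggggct
DNAJB1, nearer stretch: ggcgggctctgGAAgcTTCcgccggacggg
HSP90AA1: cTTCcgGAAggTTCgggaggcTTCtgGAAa
HSPB1: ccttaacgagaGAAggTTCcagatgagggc
HSPD1: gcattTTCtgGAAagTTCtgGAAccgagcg
These stretches lay at chr6:31815426-31815455 and chr6:31827622-31827651 on the plus strand for HSPA1A and HSPA1B, and at chr11:123062346-123062375 and chr11:123062171-123062200 on the minus strand for HSPA8. The 2 DNAJB1 stretches lay at chr19:14518456-14518485 and chr19:14518426-14518455 and the HSP90AA1 stretch at chr14:102087104-102087133, all on the minus strand. The HSPB1 stretch lay at chr7:76302480-76302509 on the plus strand and the HSPD1 stretch at chr2:197500061-197500090 on the minus strand. The stretches of HSPA8, HSP90AA1 and HSPD1 overlapped an exon of a longer transcript of the gene in GENCODE 29, and the others overlapped none of their gene's exons. The 3-unit form was present in HSPA8, HSP90AA1 and HSPD1. Over 249 bases before their starts, the HSPA1A and HSPA1B promoters were identical at 235 (94.4%). A match of letters describes the sequence and says nothing on binding, which was not measured.

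Library totals ran from 23502519 to 44815552 counts. Expression is given as CPM, counts relative to library size, scaled by TMM factors, and a difference between groups as a log2 fold change ± its standard error (SE) from edgeR's quasi-likelihood test over all 21 libraries, with p-values adjusted by Benjamini-Hochberg over the 17951 features tested. A gene is said to have risen or fallen where the adjusted p was under 0.05. All 10 hepatocyte markers averaged at least 1 CPM, led by ALB at 10370 CPM, and their sum ran from 28210 to 42870 CPM. The group mean of that sum was 37840 ± 4400 CPM in control and lowest at 1000 µM, at 28990 ± 708 (SD, n = 3), and its part in the results at that dose was not tested. All 5 fibroblast markers and both endothelial markers in the table, CDH5 and VWF, averaged under 0.1 CPM (PECAM1 was not analysed here). Of the 4 leukocyte markers 2 averaged under 0.1 CPM, with CD3E at 0. Only 1 of the 4 averaged at least 1 CPM, LYZ, lysozyme, at 1176 CPM. The libraries fell into 3 sets by their mitochondrially encoded mRNAs, which were clustered without regard to dose. Set A held the 9 libraries of control, 0.01 and 0.1 µM plus 1 µM replicates 1 and 2, with 9.95 to 14.2% of counts on all mitochondrially encoded genes. Set B held all of the 10 µM group together with the third library of the 1 µM group, the second of the 100 µM group and the first and the second of the 1000 µM group (4.72 to 4.95%). Set C was made up of the 3 remaining libraries, the first and the third at 100 µM and the third at 1000 µM (11.8 to 12.8%). The labels name no batch, all control libraries are in set A and none at 10, 100 or 1000 µM is, so dose and set cannot be told apart in full. Results on the members are therefore also given with the set as a term in the model. They are given within set B alone as well, where 10 and 1000 µM can be compared. The term rests on the 1 µM group to tie set A to set B, through replicate 3, the only library of set B there. Every estimate of 10, 100 or 1000 µM against control with the term therefore hangs on that library. In RNA of whole cultures, fewer cells that express a gene and less RNA per cell cannot be told apart.

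The 10 heat shock genes fell more often than they rose at the higher doses, and none rose or fell at 0.01, 0.1 or 1 µM. At 1000 µM 6 fell (HSF1, HSPA1B, HSPH1, DNAJB1, HSP90AA1 and BAG3), by 1.46- to 7.29-fold, and 1 rose, HSPD1, by 1.36-fold. At 100 µM 5 fell, the same genes without HSF1, and 2 rose, HSPD1 and HSPB1. At 10 µM 3 fell, HSPA1B, HSP90AA1 and BAG3, and none rose. HSPA8, the constitutive HSP70, did not pass the test at any dose. Of the 6 falls at 1000 µM, the smallest (HSF1) and the largest (HSPA1B) lost their call with the library set as a term. HSPA1B was then 2.69-fold lower.

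Counts of called members were read against the share of all features called in the same comparison. At 10 µM the 3 of 10 stood beside 14.8% of all features, at 100 µM the 7 of 10 beside 46.6%, and at 1000 µM the 7 of 10 beside 57.6%, of which 29.1% were lower and 28.5% higher. The median log2 fold change of the 10 genes was -0.18, -0.31 and -0.81 at 10, 100 and 1000 µM, where that of all features was 0.001, -0.012 and -0.007. With the library set as a term, 0, 3 and 7 of the 10 genes passed at these doses, beside 0.0279%, 17.3% and 38.0% of all features, and the members' medians were 0.014, -0.41 and -0.95. Of the features called with the term, 2 of 5 were higher at 10 µM, 1640 of 3114 at 100 µM and 3266 of 6829 at 1000 µM. In the other comparisons the shares of all features are given without direction. The 7 members that passed with the term at 1000 µM were HSPA1A, HSPH1, DNAJB1, HSP90AA1, HSPB1 and BAG3, which fell, and HSPD1, which rose. At least 1 dose differed for 8 of the 10 genes in the joint test of all 6 doses, beside 73.6% of features, and for 8 with the set as a term, beside 59.8%. At 0.01, 0.1 and 1 µM 0 of the 10 passed edgeR's quasi-likelihood test, where 0.0279%, 0% and 0.106% of all features did, and 2, 0 and 1 had an unadjusted p under 0.05. With the set as a term 0 of the 10 passed that test as well, where 542, 4 and 113 of all features did. Then 6, 2 and 1 members had an unadjusted p under 0.05. The shares of all features under that unadjusted p are not given. DESeq2's Wald test also called 0 of the 10 at each of these doses, where it called 388, 53 and 410 of all features.

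**Figure D1:**
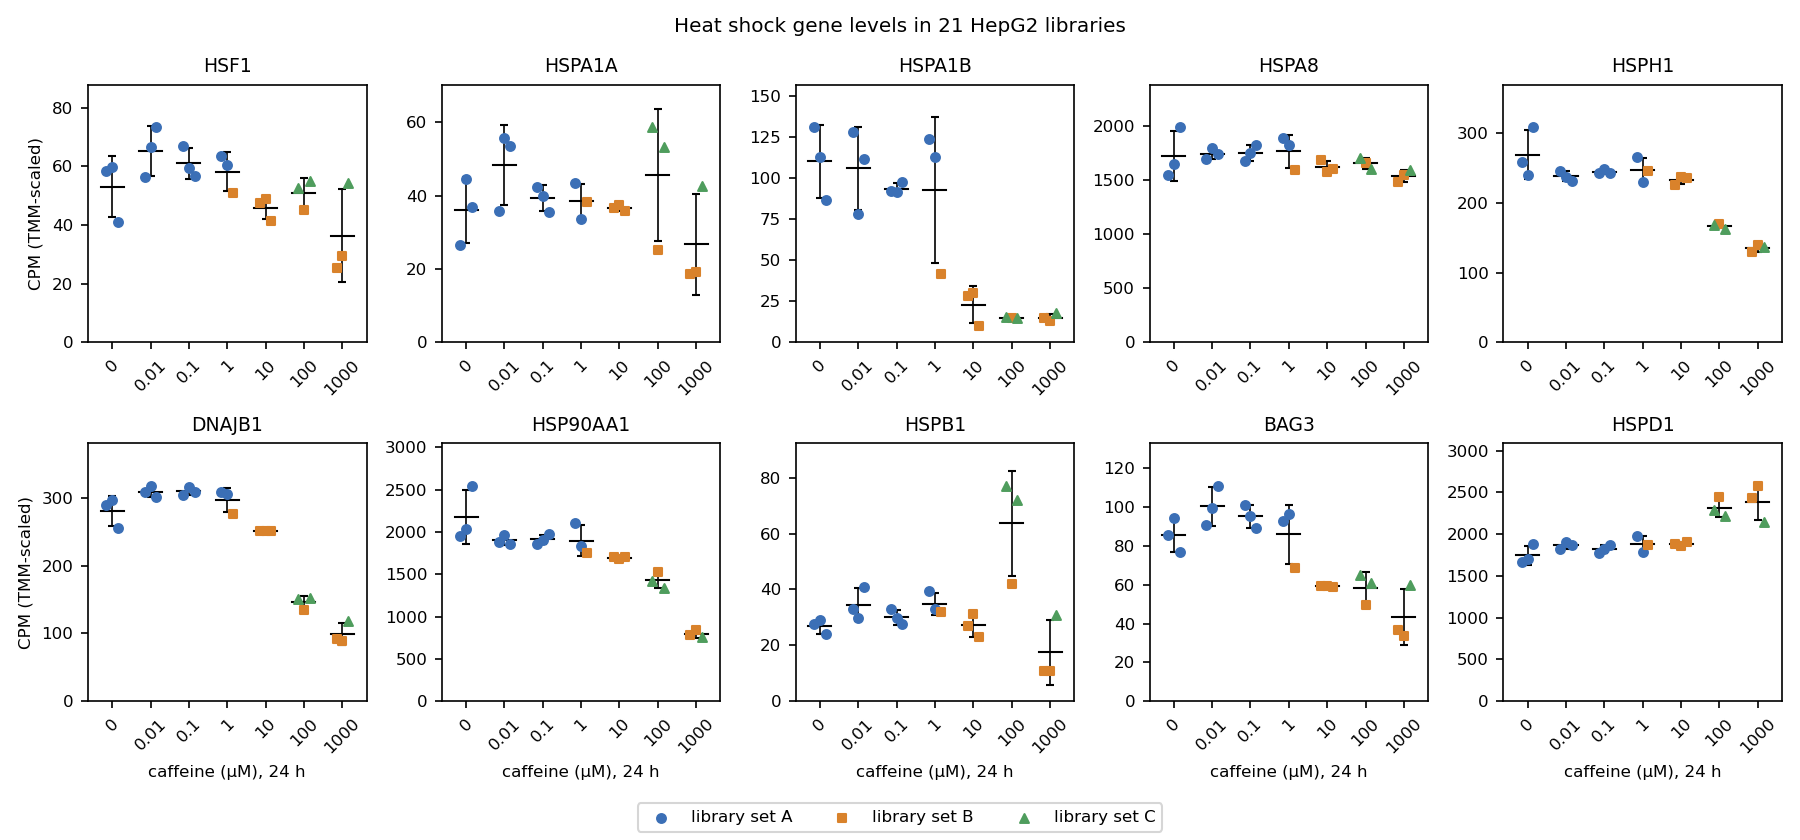
Expression of each of the 10 heat shock genes (TMM-scaled CPM, vertical axis from 0) in the 3 libraries of each caffeine dose (µM, horizontal axis, in order of dose and not to scale). Each point is 1 library, its colour and shape give the library set, bars give the group mean and whiskers ± 1 SD (n = 3), and DNAJB1, HSP90AA1 and HSPH1 step down from 10 to 1000 µM while HSPD1 steps up.

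**Figure D2:**
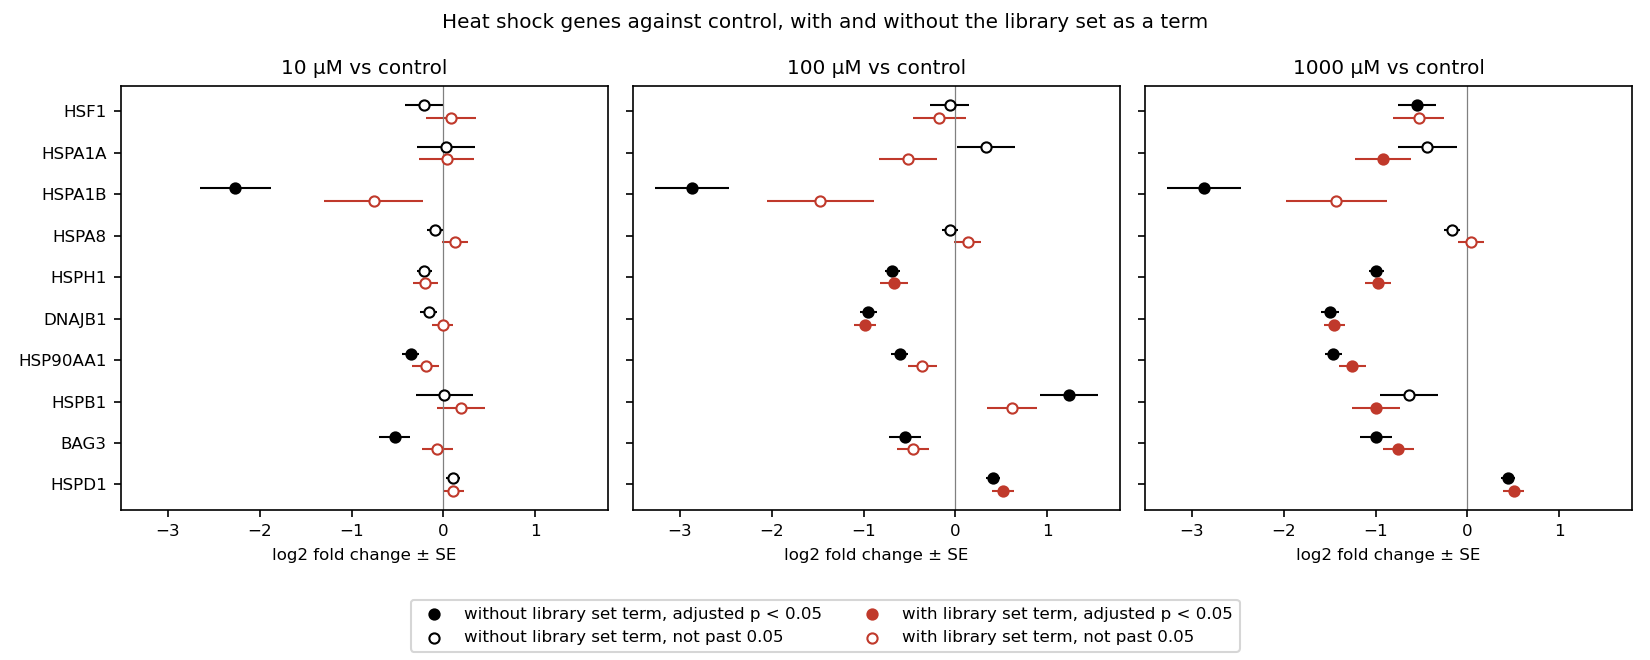
Log2 fold change against control ± SE for each gene at 10, 100 and 1000 µM, in black without and in red with the library set as a term. Filled points have an adjusted p under 0.05 in edgeR's quasi-likelihood test. With the term no gene is filled at 10 µM, 3 are at 100 µM and 7 are at 1000 µM.

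In the plot of fold changes the points of DNAJB1, HSPH1 and HSPD1 at 100 and 1000 µM lie at nearly the same fold change with and without the set term, while those of HSPA1B move toward 0 by more than 1 unit of log2. Per length of exon sequence, control levels were highest for HSP90AA1 (415 ± 60.2 CPM per kb, SD, n = 3), HSPD1 (412 ± 26.6) and HSPA8 (356 ± 47.6). DNAJB1 followed with 76.4 ± 6.18 CPM per kb, HSPA1B with 43.8 ± 8.77, HSPH1 with 32.0 ± 4.18 and BAG3 with 31.2 ± 3.13. The lowest 3 were HSPB1 (16.5 ± 1.63), HSPA1A (14.5 ± 3.63) and HSF1 (10.0 ± 1.96). HSP90AA1, HSPD1 and HSPA8 thus stood far above the other 7 genes in control cells, on a scale that takes the union of all annotated exons as the length.

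HSF1 (ENSG00000185122.11), the heat shock transcription factor itself, was at 58.3, 59.8 and 41.1 CPM in the control libraries. It was at 47.5, 48.97 and 41.5 CPM at 10 µM, 52.5, 45.3 and 54.9 at 100 µM and 25.3, 29.6 and 54.5 at 1000 µM. Replicates 1 and 2 at 1000 µM, both of set B, lay below all controls and replicate 3, of set C, lay among them, and every neighbouring pair of groups in the order of means overlapped. HSF1 fell at 1000 µM by 0.55 on the log2 scale (SE 0.21, adjusted p = 0.0341), but with the set as a term the estimate was -0.53 ± 0.28 (adjusted p = 0.146). The call was also lost without control replicate 1 (-0.48, adjusted p = 0.104), control replicate 2 (-0.46, 0.121), 1000 µM replicate 1 (-0.34, 0.177) or 1000 µM replicate 2 (-0.42, 0.144). Without 1000 µM replicate 3 the estimate was -0.96 (adjusted p = 2.85e-05). Within set B, HSF1 was lower at 1000 than at 10 µM by 0.77 ± 0.09 (log2, adjusted p = 2.64e-05). Among the other factors of the family, HSF4 fell at 100 and at 1000 µM (-0.52 ± 0.17 and -0.69 ± 0.17), while HSF2 fell at 100 µM (-0.36 ± 0.10, adjusted p = 0.00598) and was at -0.23 ± 0.10 at 1000 µM (adjusted p = 0.0557). With the set term HSF4 kept its call at 1000 µM (-1.08, adjusted p = 0.00441) and HSF2 lost its call at 100 µM (-0.42, 0.131).

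HSPA1A (ENSG00000204389.9, chr6:31815464-31817946) and HSPA1B (ENSG00000204388.7, chr6:31827735-31830255) are neighbouring genes for nearly the same stress-inducible HSP70 protein. HSPA1B was at 131, 113 and 86.97 CPM in control libraries and at 124, 113 and 41.7 at 1 µM. It was at 28.6, 30.2 and 10.1 CPM at 10 µM, 15.6, 15.1 and 14.8 at 100 µM and 14.8, 12.97 and 17.7 at 1000 µM. All 9 libraries of the highest 3 doses lay below every other library, and replicate 3 at 1 µM, the single library of that group in set B, lay between both blocks. Against control HSPA1B fell 4.8-fold at 10 µM (-2.26 ± 0.39 on the log2 scale), 7.28-fold at 100 µM (-2.87 ± 0.40) and 7.29-fold at 1000 µM (-2.87 ± 0.40), with adjusted p = 0.00322, 2.82e-05 and 1.48e-05. With the set as a term the estimates were -0.76 ± 0.54, -1.47 ± 0.58 and -1.43 ± 0.55, and none passed (adjusted p = 1, 0.105 and 0.0579). From 10 to 100 µM the difference was -0.60 ± 0.39 and from 100 to 1000 µM -0.001 ± 0.39, neither of which passed with all libraries kept. The difference from 10 to 100 µM passed without 10 µM replicate 3, the lowest of that group (-0.96, adjusted p = 0.0416).

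Without the set term HSPA1A did not follow HSPA1B against control, a difference that was not itself tested. With the term the estimates of both genes were negative at 100 and 1000 µM. The control libraries of HSPA1A were at 26.6, 44.6 and 36.8 CPM, and HSPA1A was at 36.5, 37.5 and 35.9 CPM at 10 µM, 58.6, 25.1 and 53.4 at 100 µM and 18.6, 19.1 and 42.6 at 1000 µM. At 100 µM the 2 libraries of set C lay above all controls and the set B library below them, and at 1000 µM the 2 libraries of set B lay below all controls and the set C library among them. Accordingly, no dose passed against control (0.02, 0.34 and -0.44 at 10, 100 and 1000 µM, adjusted p = 0.972, 0.404 and 0.253), while with the set as a term HSPA1A was at -0.51 ± 0.32 at 100 µM (0.308) and was lower at 1000 µM by 0.92 ± 0.30 (adjusted p = 0.0238). Without 1000 µM replicate 3 the difference at that dose was -0.94 (adjusted p = 0.0127). Leaving out the 3 libraries whose set differs from the rest of their group gave a called rise of 0.64 at 100 µM (adjusted p = 0.0127), so the direction at 100 µM depended on the model. In the fit with the set term, HSPA1A was estimated higher in set C than in set A by 1.15 ± 0.30 (adjusted p = 0.0304, beside 5.97% of features that differed between these sets). No dose holds libraries of both sets, so this estimate runs through set B and rests on 1 µM replicate 3. Within set B, HSPA1A fell from 10 to 1000 µM by 0.98 ± 0.06 (adjusted p = 4.37e-08), and HSPA1B was at -0.74 ± 0.62 (0.363), or at -1.10 without 10 µM replicate 3 (1.27e-08).

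The split of counts between these 2 genes is uncertain. Of the 75-base stretches of the HSPA1A transcript, 71.2% also occur in HSPA1B, and 70.1% of those of HSPA1B occur in HSPA1A, so many reads fit both. On the same strand, 920 of the 2521 exonic bases of HSPA1B (36.5%) are also exons of the noncoding gene AL671762.1. AL671762.1 ranged from 2.01 to 42.2 CPM among the libraries of set A, and was at most 0.214 CPM in set B and 0.373 CPM in set C. HSPA1A took 16.9 to 41.6% of the summed counts of the pair in set A. Its share was 47.8 to 78.1% among the set B libraries and 70.6 to 79.0% among those of set C, above every library of set A. The 1 µM group, which spans 2 sets, had a share of 47.8% in its set B library and of 23.0 to 26.0% in the others. Which of dose, set or the assignment of reads moved this share was not tested.

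Summed, HSPA1A and HSPA1B were at 157.6, 157.7 and 123.8 CPM in control libraries. The sum was 65.1, 67.7 and 46.0 CPM at 10 µM, 74.3, 40.2 and 68.2 at 100 µM and 33.4, 32.1 and 60.3 at 1000 µM. No library of these 3 doses overlapped a control library. The sum fell 2.46-, 2.41- and 3.5-fold (-1.30 ± 0.28, -1.27 ± 0.28 and -1.81 ± 0.29 on the log2 scale, adjusted p = 0.0088, 0.00163 and 4.79e-05). With the set as a term it was at -0.32 ± 0.22 at 10 µM (adjusted p = 1), and it fell by 0.91 ± 0.23 at 100 µM (0.0114) and by 1.18 ± 0.22 at 1000 µM (0.000392). Within set B it fell from 10 to 1000 µM by 0.89 ± 0.21 (adjusted p = 0.0196). From 10 to 100 µM the sum was at 0.03 ± 0.28 without the term (0.953) and fell by 0.59 ± 0.15 with it (0.00706). With AL671762.1 added, the lowest of the set A libraries was at 126.4 CPM and the highest of the libraries outside set A at 80.2 CPM, so these again did not overlap.

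**Figure D3:**
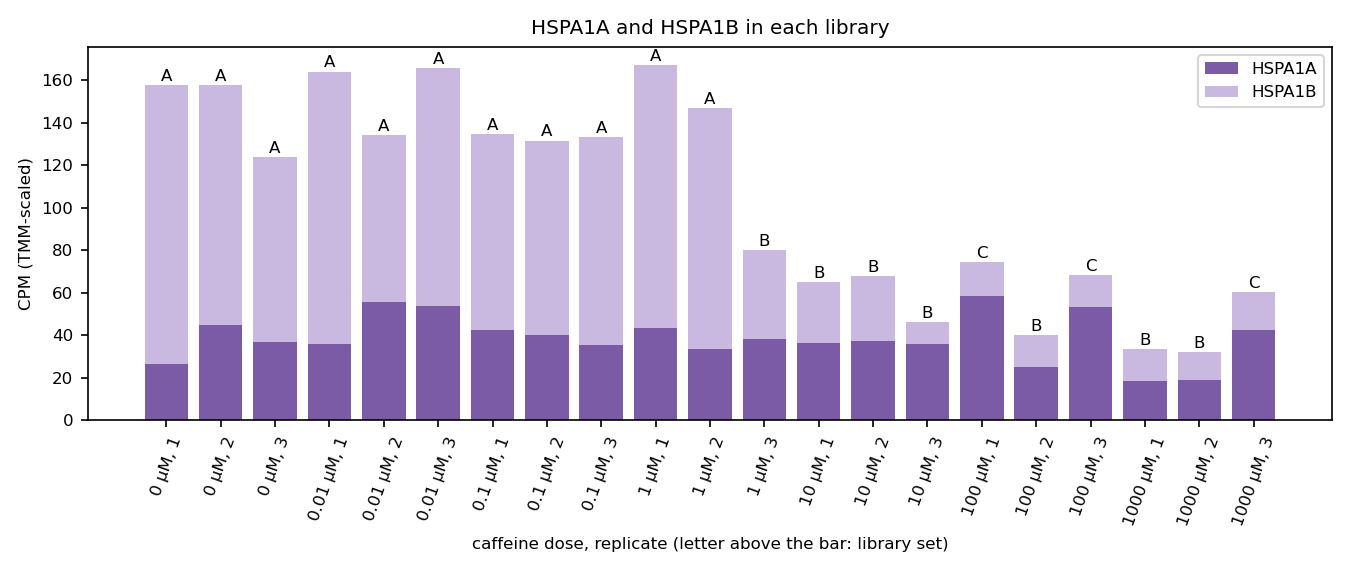
HSPA1A (dark) and HSPA1B (light) stacked in each of the 21 libraries, in TMM-scaled CPM on an axis from 0, ordered by caffeine dose and replicate, with the library set as a letter above each bar. Bars of set A reach 123.8 to 167.1 CPM and are mostly HSPA1B, and bars of sets B and C reach 32.1 to 80.0 CPM with HSPA1A as the larger part in all but replicate 3 at 1 µM.

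HSPA8 (ENSG00000109971.14, chr11:123057489-123063230) encodes the constitutive cytosolic HSP70 that handles new and trafficked proteins. It was at 1545, 1647 and 1986 CPM in control libraries and at 1482, 1543 and 1592 at 1000 µM. Over all 21 libraries it ranged only 1.34-fold, from 1482 to 1986 CPM, the narrowest range of the 10 genes. Its differences from control were -0.09 ± 0.09, -0.06 ± 0.09 and -0.17 ± 0.09 at 10, 100 and 1000 µM, and the last had an adjusted p of 0.108. Leaving out control replicate 1 brought the call at 1000 µM (-0.24, adjusted p = 0.0294), and with the set as a term the estimate was 0.04 ± 0.14.

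HSPH1 (ENSG00000120694.19, chr13:31134974-31162388) encodes the stress-inducible HSP110, the nucleotide exchange factor of HSP70. In control libraries it was at 258, 239.7 and 308 CPM, and the 9 libraries of the lowest 3 doses lay between 229.9 and 264.8 CPM. It was at 226, 236 and 235 CPM at 10 µM, 168, 169.8 and 163 at 100 µM and 129, 139 and 137 at 1000 µM. The 3 groups from 10 to 1000 µM did not overlap one another, and all 9 of their libraries lay below every control. HSPH1 fell 1.61-fold at 100 µM (-0.69 ± 0.08, adjusted p = 1.42e-06) and 1.99-fold at 1000 µM (-0.99 ± 0.08, 4.45e-09), and at 10 µM it was at -0.21 ± 0.08 (0.0839), or -0.28 without control replicate 2 (0.0374). These calls stood with the set as a term, at -0.67 ± 0.15 (adjusted p = 0.004) and -0.98 ± 0.14 (2.24e-05). Within set B the fall from 10 to 1000 µM was 0.81 ± 0.05 (adjusted p = 5.03e-08). All 3 HSP110 genes measured, HSPH1, HSPA4 and HSPA4L, fell at 100 and at 1000 µM, beside 46.6% and 57.6% of all features called, and HSPH1 and HSPA4L did so with the set term, beside 17.3% and 38.0%. HSPA4L fell by 0.87 ± 0.10 at 1000 µM (adjusted p = 4.66e-07), and was at -0.92 ± 0.14 with the term (3.89e-05).

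DNAJB1 (ENSG00000132002.8, chr19:14514770-14529770) encodes HSP40, the J-domain partner of inducible HSP70. Control libraries held 289.9, 297 and 255 CPM, and 251, 251 and 252 was seen at 10 µM. DNAJB1 was at 151, 134 and 152 CPM at 100 µM and 91.7, 88.97 and 118 at 1000 µM. Each of these groups lay wholly below the one before, control, 10, 100 and 1000 µM in that order, and the libraries at 0.01 and 0.1 µM all lay above the controls without passing the test. DNAJB1 fell 1.93-fold at 100 µM (-0.95 ± 0.09, adjusted p = 1.77e-07) and 2.82-fold at 1000 µM (-1.50 ± 0.10, 1.39e-10), and stood at -0.16 ± 0.09 at 10 µM (0.253). It fell from 10 to 100 µM by 0.79 ± 0.09 (adjusted p = 3.25e-06) and from 100 to 1000 µM by 0.55 ± 0.09 (9.85e-05). Adding the set term left all 4 values close, at -0.98 and -1.45 against control and -0.97 and -0.47 between doses, each past the threshold. Within set B the fall from 10 to 1000 µM was 1.49 ± 0.05 (adjusted p = 1.79e-10).

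J-domain genes did not all fall with DNAJB1. Of the 8 measured, 6 passed at 1000 µM, 3 lower and 3 higher, beside 57.6% of all features, and with the set term 4, 1 lower and 3 higher, beside 38.0%. Within set B 6 passed, beside 69.1%, of which DNAJB1 alone was lower at 1000 than at 10 µM. DNAJB2, which routes clients to the proteasome, rose by 0.89 ± 0.11 at 1000 µM (adjusted p = 1.27e-06), and by 0.71 ± 0.19 with the set term (0.00578). DNAJA2, a constitutive partner of HSPA8, rose by 0.73 ± 0.08 (adjusted p = 2.32e-07), and by 0.43 ± 0.12 with the term (0.00692). DNAJB4 fell at 100 µM by 0.86 ± 0.11 (adjusted p = 2.96e-06) and was at -0.06 ± 0.11 at 1000 µM (0.65), and its call at 100 µM stood with the term (-0.62 ± 0.19, 0.0308).

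HSP90AA1 (ENSG00000080824.18, chr14:102080738-102139699) encodes HSP90 alpha, the stress-inducible HSP90 of the cytosol. Control libraries held 1958, 2034 and 2540 CPM, with replicate 3 the highest of all 21 libraries. HSP90AA1 was at 1710, 1684 and 1702 CPM at 10 µM, 1421, 1526 and 1341 at 100 µM and 783, 842 and 754 at 1000 µM. The 3 groups from 10 to 1000 µM did not overlap one another, and all 9 of their libraries lay below every control. HSP90AA1 fell 1.28-fold at 10 µM (-0.36 ± 0.09, adjusted p = 0.0158), 1.52-fold at 100 µM (-0.61 ± 0.09, 2.82e-05) and 2.75-fold at 1000 µM (-1.46 ± 0.09, 1.67e-10). Under the set term the call was lost at 10 µM (-0.19 ± 0.15, adjusted p = 1) and 100 µM (-0.36 ± 0.16, 0.127) and stood at 1000 µM (-1.25 ± 0.15, 2.29e-06). The step from 100 to 1000 µM was -0.85 ± 0.09 without and -0.89 ± 0.09 with the term (adjusted p = 5.03e-07 and 8.49e-08), and within set B HSP90AA1 fell from 10 to 1000 µM by 1.08 ± 0.05 (3.79e-09). The call at 10 µM was also lost without control replicate 3 (-0.23, adjusted p = 0.0773) or any 1 of the 10 µM replicates (adjusted p 0.0514 to 0.0562). The step from 10 to 100 µM (-0.25 ± 0.09, adjusted p = 0.0426) was lost in 11 of 21 refits that each left out 1 library, with an adjusted p of up to 0.161, and with the set term (-0.17, 0.234).

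HSP90AB1, the constitutive HSP90 beta, did not fall with it. HSP90AB1 was at 2427, 2628 and 2943 CPM in control libraries and at 2810, 2769 and 2985 at 1000 µM, and these overlapped. It rose at 100 µM (0.26 ± 0.07, adjusted p = 0.00647), a call lost with the set term (0.29 ± 0.13, 0.138), and was at 0.10 ± 0.07 at 1000 µM (0.254). The ratio of HSP90AA1 to HSP90AB1 counts had a geometric mean of 0.814 in control, 0.629 at 10 µM, 0.447 at 100 µM and 0.278 at 1000 µM. Its control range of 0.774 to 0.863 did not overlap those of 0.618 to 0.645, 0.422 to 0.487 and 0.252 to 0.304 at these doses. It also lay wholly below control at 0.01 µM (0.664 to 0.73), 0.1 µM (0.703 to 0.732) and 1 µM (0.66 to 0.713), and the 10, 100 and 1000 µM groups lay below these. The exact 2-sided permutation p of each of these 6 comparisons was 0.1, the smallest that 3 against 3 libraries allow. This ratio was not tested with the set as a term. Of the 9 HSP90 and co-chaperone genes, 7 passed at 1000 µM, 5 lower and 2 higher, beside 57.6% of all features, and with the set term 3 did, 1 lower and 2 higher, beside 38.0%. FKBP5, an immunophilin of the steroid receptor complex, rose by 1.09 ± 0.10 (2.12-fold, adjusted p = 2.11e-08) and by 1.46 with the set term. CHORDC1, a co-chaperone of HSP90, fell at 10 µM by 0.52 ± 0.09 (adjusted p = 0.00303), but was at -0.27 ± 0.14 with the set term (0.987).

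HSPB1 (ENSG00000106211.9, chr7:76302544-76304295) encodes HSP27, a small heat shock protein that holds unfolded clients without ATP. It was at 27.7, 29.1 and 23.9 CPM in control libraries and 26.9, 31.4 and 23.1 at 10 µM. At 100 µM it was at 76.9, 41.95 and 72 CPM and at 1000 µM at 10.7, 10.98 and 30.8. All 3 libraries at 100 µM lay above every other group, those of set C by most, while at 1000 µM the 2 set B libraries were the lowest of all 21 and the set C library lay just above the controls. HSPB1 rose 2.36-fold at 100 µM (1.24 ± 0.31, adjusted p = 0.00405) and was at -0.64 ± 0.32 at 1000 µM (0.098). With the set term it was at 0.62 ± 0.27 at 100 µM (adjusted p = 0.137) and fell by 0.99 ± 0.26 at 1000 µM (0.00632). The fall from 100 to 1000 µM was called both without and with the term (-1.87 ± 0.32 and -1.61 ± 0.15, adjusted p = 0.000177 and 9.12e-08), and within set B HSPB1 fell from 10 to 1000 µM by 1.35 ± 0.13 (1.83e-05). Without 1000 µM replicate 3 the fall at 1000 µM was 1.32 (adjusted p = 4.75e-05). In the fit with the set term, HSPB1 was estimated higher in set C than in set A by 0.96 ± 0.26 (adjusted p = 0.0326). This estimate too runs through set B, as no dose holds libraries of both sets. Of the 75-base stretches of the HSPB1 transcript, 7.9% also occur in a processed pseudogene, HSPB1P1. Of those of HSPD1 and HSP90AA1, 10.1% and 6.1% also occur in other genes.

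BAG3 (ENSG00000151929.9, chr10:119651370-119677819) encodes a cofactor that links HSP70 and small heat shock proteins to selective autophagy. Its control libraries held 85.8, 94.3 and 77.2 CPM, and 59.6, 59.6 and 58.8 was seen at 10 µM. BAG3 was at 65.1, 49.5 and 61.1 CPM at 100 µM and 36.5, 33.4 and 59.8 at 1000 µM. All 9 libraries of these 3 doses lay below every control, and at 1 µM the set B library (68.6 CPM) did too. BAG3 fell at 10 µM (-0.53 ± 0.17, adjusted p = 0.0443), at 100 µM (-0.55 ± 0.17, 0.0134) and 1.99-fold at 1000 µM (-0.99 ± 0.17, 7.9e-05). With the set term it was at -0.07 ± 0.17 and -0.46 ± 0.18 at the lower 2 of these doses (adjusted p = 1 and 0.0808) and fell by 0.75 ± 0.17 at 1000 µM (0.00164). Within set B it fell from 10 to 1000 µM by 0.78 ± 0.06 (adjusted p = 1.59e-07). The call at 10 µM was lost in 14 of 21 refits that each left out 1 library (adjusted p 0.0516 to 0.141), that at 100 µM without control replicate 2 (0.0579) or 100 µM replicate 2 (0.065), and the step from 100 to 1000 µM (-0.44 ± 0.17, adjusted p = 0.0463) in 16 of 21. Leaving out 1000 µM replicate 3 gave -0.75 for that step (adjusted p = 0.000175).

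Other cofactors of HSP70 moved in both directions. Of the 8 measured, BAG3 included, 4 passed at 1000 µM, 3 lower (BAG3, ST13 and STUB1) and 1 higher (BAG5), beside 57.6% of all features. Under the set term 4 passed, beside 38.0%, of which BAG3, STUB1 and HSPBP1 were lower and BAG5 was higher. HSPBP1, a nucleotide exchange factor of HSP70, was at 0.05 ± 0.17 without the term (adjusted p = 0.824) and at -0.64 ± 0.25 with it (0.0493). STUB1, the ubiquitin ligase CHIP that marks chaperone clients, fell by 0.95 ± 0.13 at 1000 µM (1.93-fold, adjusted p = 3.63e-06), and by 0.97 with the set term (0.00253). BAG5, which shares the BAG domain, rose by 1.25 ± 0.18 (2.37-fold, adjusted p = 6.27e-06), from 17.0 ± 2.31 to 40.3 ± 11.1 CPM (SD, n = 3), and by 1.23 with the term (2.61e-05). BAG1, another BAG domain protein, fell from 10 to 100 µM by 0.59 ± 0.11 (adjusted p = 0.000275), and by 0.43 ± 0.10 with the term (0.00335).

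HSPD1 (ENSG00000144381.17, chr2:197486581-197516737), HSP60 of the mitochondrial matrix, was the single member higher at both 100 and 1000 µM. It was at 1669, 1703 and 1879 CPM in control libraries and between 1773 and 1978 in the 12 libraries from 0.01 to 10 µM. HSPD1 was at 2290, 2445 and 2220 CPM at 100 µM and 2431, 2574 and 2150 at 1000 µM. These 6 libraries lay above all 15 others, and both groups overlapped each other. HSPD1 rose 1.32-fold at 100 µM (0.41 ± 0.08, adjusted p = 0.000228) and 1.36-fold at 1000 µM (0.45 ± 0.08, 4.85e-05). With the set term the rises were 0.52 ± 0.12 (adjusted p = 0.00607) and 0.50 ± 0.12 (0.00209), and within set B the rise from 10 to 1000 µM was 0.39 ± 0.05 (1.93e-05). The step was between 10 and 100 µM (0.30 ± 0.08, adjusted p = 0.00436), with 0.04 ± 0.08 between 100 and 1000 µM (0.691).

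Of its partners in the matrix, HSPE1 was lower and HSPA9 higher at these doses. HSPE1, the HSP10 lid, was at 426, 459 and 773 CPM in control libraries, 270.1, 267 and 218 at 10 µM, 421, 236 and 328 at 100 µM and 202, 234 and 191 at 1000 µM. HSPE1 fell at these doses (-1.13 ± 0.24, -0.75 ± 0.24 and -1.40 ± 0.24 on the log2 scale, adjusted p = 0.00682, 0.0146 and 7.38e-05), but not past the threshold with the set term (-0.34 ± 0.46 at 100 µM and -0.89 ± 0.42 at 1000 µM, 0.675 and 0.114), nor within set B (-0.23 ± 0.12, 0.127). All 3 HSPE1 libraries at 0.01 µM and all 3 at 0.1 µM also lay below every control, without passing the test (-0.66 ± 0.24 and -0.75 ± 0.24, adjusted p = 0.224 and 0.363). Annotated exons of HSPD1 and HSPE1, neighbours that are transcribed away from each other, share 281 bases on opposite strands, and HSPE1 shares 192 bases on its own strand with the readthrough gene HSPE1-MOB4, so part of their reads may be assigned to either gene. HSPA9, mortalin, was at 427, 432 and 487 CPM in control libraries, 515, 569 and 489 at 100 µM and 784, 826 and 734 at 1000 µM, where all libraries lay above every control. It rose by 0.22 ± 0.08 at 100 µM (adjusted p = 0.0289) and by 0.80 ± 0.08 at 1000 µM (1.74-fold, 9.38e-08), and with the set term by 0.56 and 1.08. The ratio of HSPD1 to HSPE1 counts had a geometric mean of 3.28 in control and 7.51, 7.25 and 11.4 at 10, 100 and 1000 µM, and that of HSPD1 to HSPA9 was 3.9 and then 4.4, 4.43 and 3.05. None of these 6 comparisons overlapped between dose and control, each with an exact 2-sided permutation p of 0.1, the smallest possible. The ratio of HSPD1 to HSPE1 already lay above its control range of 2.43 to 3.92 at 0.01 µM (4.82 to 6.51) and 0.1 µM (4.93 to 6.2), and both ranges overlapped that of 5.44 to 10.4 at 100 µM. At 1 µM it overlapped control, as did the ratio to HSPA9 at all of the lowest 3 doses.

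**Figure D4:**
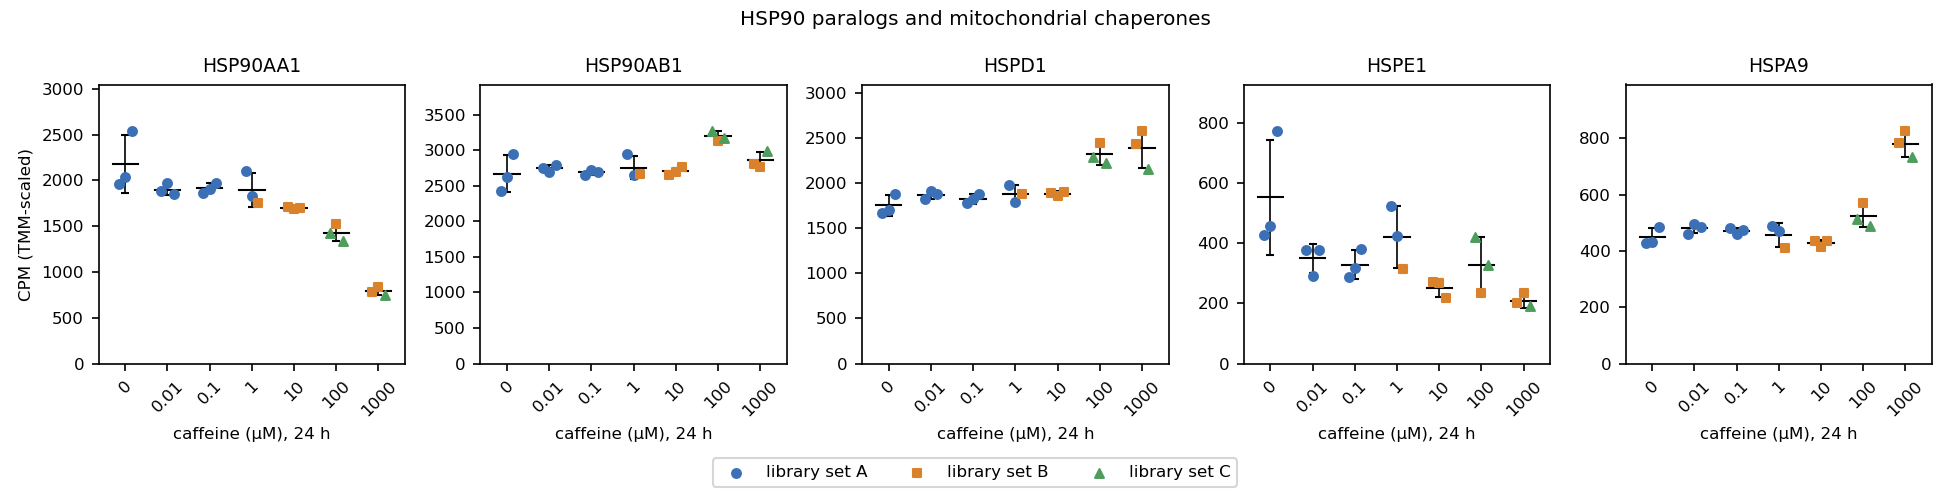
TMM-scaled CPM (vertical axes from 0) by caffeine dose (µM, not to scale) of the HSP90 paralogs HSP90AA1 and HSP90AB1 and of the mitochondrial chaperones HSPD1, HSPE1 and HSPA9. Points are libraries with the set as colour and shape, and bars and whiskers are means ± SD (n = 3), with HSP90AA1 lowest and HSPA9 highest at 1000 µM while HSP90AB1 overlaps control there.

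Direct comparisons of doses left the control libraries out of the contrast. From 100 to 1000 µM 5 of the 10 genes fell and none rose (HSPH1, DNAJB1, HSP90AA1, HSPB1 and BAG3), beside 44.0% of all features called, and 5 fell with the set term, beside 46.3%. From 10 to 100 µM 3 fell (HSPH1, DNAJB1 and HSP90AA1) and 2 rose (HSPB1 and HSPD1), beside 34.4%, and with the set term HSPH1, DNAJB1 and BAG3 fell and HSPD1 rose, beside 28.7%. Within set B, which compared 2 libraries at 1000 µM with 3 at 10 µM, 7 of the 10 fell and 1 rose, beside 69.1% of the 17090 features tested there. HSPA1B and HSPA8 did not pass in set B, but HSPA8 (-0.12 ± 0.05, adjusted p = 0.0625) did without 10 µM replicate 2 (0.0464) or replicate 3 (0.0172). From 100 to 1000 µM HSF1 passed without 1000 µM replicate 3 (-0.90, adjusted p = 9.27e-05), and HSPA1A passed without that library (-1.28, 0.0023) or without 100 µM replicate 2 (-1.07, 0.0071). With all libraries kept, HSPA1A was at -0.78 ± 0.32 for that step (adjusted p = 0.0597) and HSF1 at -0.49 ± 0.21 (0.0723). For HSPA1A this step was called by DESeq2's Wald test (adjusted p = 0.0237), by limma-voom (0.046) and with a filter at a mean of 5 CPM (0.04), and for HSF1 by limma-voom (0.0307). HSPA8 in set B was also called by DESeq2's Wald test (adjusted p = 0.0436) and limma-voom (0.0447). The slope on dose rank, counted from control as 0 to 1000 µM as 6, was negative for 6 genes and positive for HSPD1, beside 55.3% of features called. With the set as a term the slope was called for HSPH1 alone (-0.15 ± 0.04 log2 per dose step, adjusted p = 0.046), beside 4.27%.

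A wider list of 55 other chaperones, co-chaperones and heat shock factor genes, of which 52 passed the filter on low counts, placed the members among their pathway. Of these 52, 32 passed at 1000 µM, 20 lower and 12 higher, beside 57.6% of all features, and 30 at 100 µM, 20 lower and 10 higher, beside 46.6%. With the set as a term 18 passed at 1000 µM, 8 lower and 10 higher, beside 38.0%, and 13 at 100 µM, 5 lower and 8 higher, beside 17.3%, so the excess of falls over rises turned with the term. The median log2 fold change of the 52 at 1000 µM was -0.14 without and -0.07 with the term, nearer to 0 than that of the 10 members. Within set B 32 of the 49 tested passed, 15 lower and 17 higher, beside 69.1% of all features, with a median of -0.005 beside -0.80 for the members.

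TRiC, the cytosolic chaperonin that folds actin and tubulin, moved in both directions. Of its 8 subunits, 2 rose and 2 fell at 100 µM, and 3 rose and 1 fell at 1000 µM, beside 46.6% and 57.6% of all features called. Under the set term CCT7 rose and TCP1 fell, 1 of 8 each, at both of these doses, beside 17.3% and 38.0%. TCP1 fell by 0.45 ± 0.07 at 1000 µM (adjusted p = 1.24e-05), and by 0.50 ± 0.11 with the term (0.00177). CCT4, one of its subunits, rose 1.61-, 2.02- and 2.04-fold at 10, 100 and 1000 µM, but all 3 calls were lost with the set term (0.11 ± 0.17, 0.40 ± 0.18 and 0.43 ± 0.17, adjusted p = 1, 0.138 and 0.054). CCT7 rose by 1.01 ± 0.07 at 100 µM (adjusted p = 2.23e-09), and by 1.09 with the set term. Of the 10 mitochondrial genes, HSPD1 included, 4 rose and 4 fell at 1000 µM, and 4 rose and 2 fell with the set term. GRPEL2, a nucleotide exchange factor of HSPA9, rose from 100 to 1000 µM by 1.05 ± 0.19 (adjusted p = 0.000181), and by 0.77 ± 0.11 with the term. CLPP, the matrix protease subunit, fell by 1.11 ± 0.15 at 1000 µM (2.16-fold, adjusted p = 4.22e-06), and by 0.86 with the term (0.00686). SERPINH1, the collagen chaperone HSP47 of the endoplasmic reticulum, rose from 10 to 100 µM by 0.68 ± 0.12 (adjusted p = 0.000168), and by 0.79 ± 0.12 with the term.

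**Figure D5:**
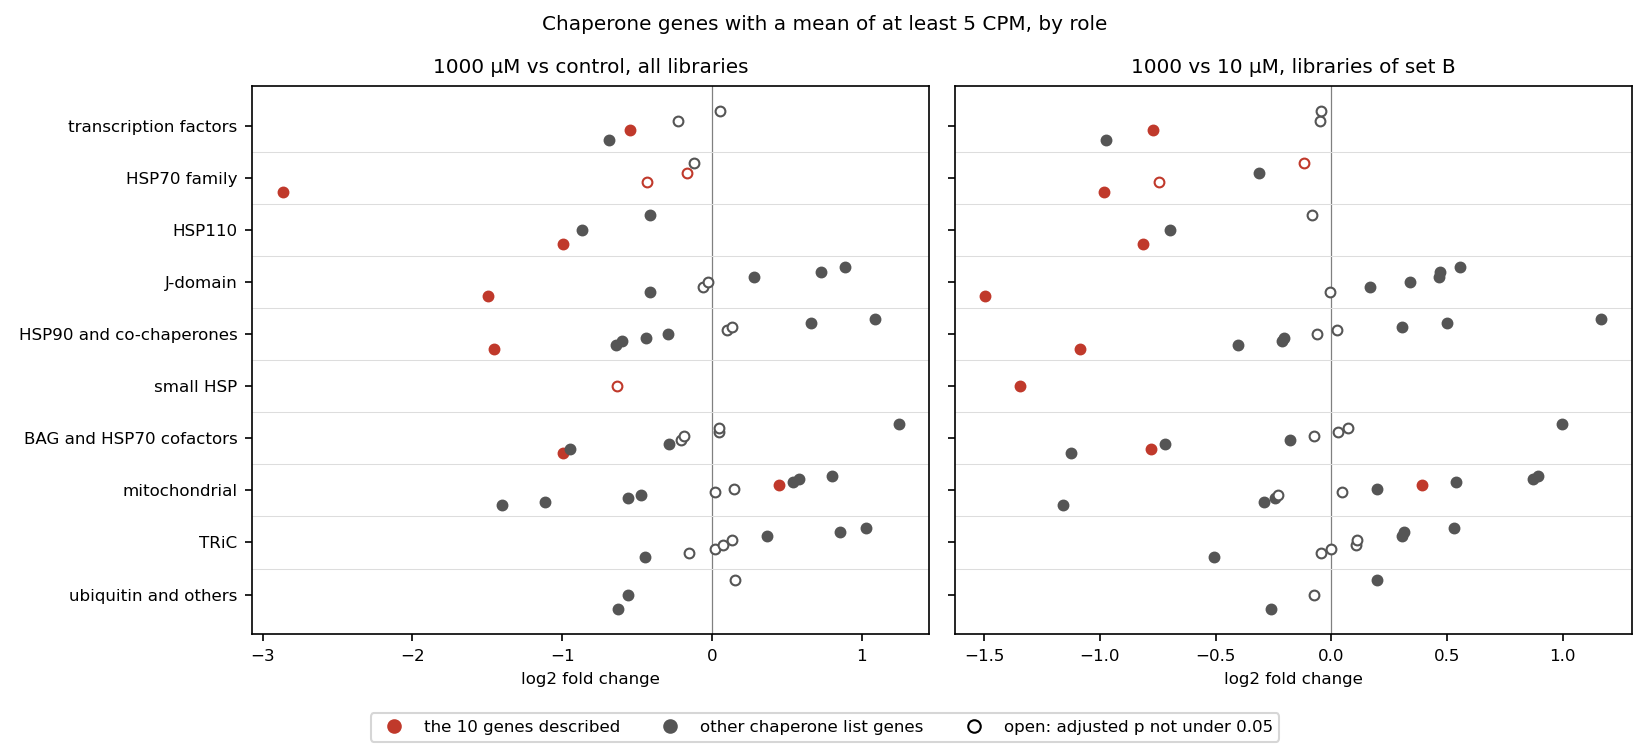
Log2 fold changes of the 10 described genes (red) and of other genes on the chaperone list (grey) with a mean of at least 5 CPM, by role, for 1000 µM against control over all libraries (left) and for 1000 against 10 µM within library set B (right). Each point is 1 gene, open points did not pass an adjusted p of 0.05 in edgeR's quasi-likelihood test, and the red points of DNAJB1, HSPH1 and HSP90AA1 lie at the low end of their rows in both panels while that of HSPD1 lies to the right of 0.

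Genes whose course over the 7 groups was most like that of a member were sought among 10864 genes with a mean of at least 5 CPM, by the root mean square difference of centred log2 group means. For DNAJB1 these were CARMIL2 (0.057), LMCD1 (0.0579) and SRCIN1 (0.0605), where the DNAJB1 course itself had an SD of 0.645. HSPH1 was nearest to SERPINA10 (0.0442), MR1 (0.0495) and TAF6L (0.0535), with an SD of its own of 0.361. HSPD1 was nearest to GNA11 (0.0366), PPP2R5C (0.0378) and AGPAT3 (0.0415), with an SD of 0.176. HSPA1A was nearest to SLC25A39 (0.0533), BORCS7-ASMT (0.0543) and SLC25A22 (0.0553), with an SD of 0.292. None of these 12 genes is a chaperone of the lists used here, and the points behind each likeness share libraries and library sets.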

How the data were processed

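RNA of 21 HepG2 libraries, 7 groups of 3 biological replicates after 24 h, was measured by sequencing of poly(A) RNA. The deposited table holds raw read counts per gene, and the submitters' processing notes name HISAT2, DESeq2 and GRCh38 without saying which step each served. The counter, the annotation and the use of strand are not given in the sources used here, so reads of overlapping or antisense genes may be split in unknown ways. Symbols came from Ensembl identifiers through a list of gene names, and exon lengths and positions from GENCODE 29. The version of 66.47% of the Ensembl identifiers was in GENCODE 29. The deposited table also holds 4700 unannotated loci. A further 21 per-sample columns match no sample of the series and were not used. Groups were taken from the labels, which do not say how the replicate cultures were prepared, so p-values measure the spread between these libraries.

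Features were filtered with filterByExpr by group (17951 of 37637 kept, all 10 members among them), scaled by TMM and fitted with edgeR 4.0.16 (glmQLFit, robust, and glmQLFTest) in R 4.3.3 over all 21 libraries, with Benjamini-Hochberg adjustment over all features kept and a threshold of 0.05. The fit within library set B used its 5 libraries at 10 and 1000 µM alone, with filter and scaling recomputed. Library sets were found by average-linkage clustering of mitochondrial mRNA levels (mean silhouette 0.571 for 3 sets, 0.525 for 2). Replicates of 1 group differed beyond counting noise in each of 21 pairs (chi-square per gene of at least 3.59), so none was counted once with another. Permutation tests of ratios were exact and 2-sided. The fits were also run on simulated counts, with the outcome not given here. Alternatives were DESeq2 1.42.0, limma 3.58.1 (voom), other scalings and filters, a replicate block, the set term, the summed HSPA1 pair, other dose scales and each library left out.

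The members and lists were chosen with earlier results of these data known. All 10 members are named, with HSPE1, HSPA9, HSP90AB1 and HSF2. Of the wider list, genes are named from the 3 largest called rises and falls per comparison among those with a mean of at least 5 CPM, leaving out 1 gene that is not reported here, and HSPA4, ST13, TCP1, HSPE1-MOB4, AL671762.1 and the leukocyte marker LYZ were named after their values were seen. Profiles were compared as log2(CPM + 0.5).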

Additional observations from a re-analysis of the deposited data

How the results depend on the processing

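Among 2930 values of single members under alternatives, 2815 kept direction and side of the threshold, 77 lost their call, 35 gained one and 3 reversed. A sign change where neither value was called counts as kept. Many of these values had little room to change, being refits without 1 library outside the groups compared, or low doses with no call to lose. Under the set term alone 70 values were kept, 17 lost their call and 3 gained one. With the set term 0 members were called at 10 µM, 3 at 100 µM and 1 in the trend. Of the wider list that term gave 3 calls (0.01 µM), 0 (10 µM), 13 (100 µM), 18 (1000 µM) and 6 (trend), where 542, 5, 3114, 6829 and 767 of all features were called. The set term reversed HSPBP1 (-0.0585 at 10 µM, -0.641 at 1000 µM). Summing the HSPA1 pair reversed HSPA1A (-1.30 at 10 µM, -1.27 at 100 µM), and linear dose reversed the slope of HSPB1 (-0.00093 log2 per µM). Without the filter 1 member and 11 list genes were called at 10 µM, with 1748 features in place of 2650. DESeq2's Wald test called 4 list genes at 0.01 µM and 3 at 1 µM, among 388 and 410 features called, in place of 5 and 19. Leaving out the 3 libraries whose set differs from the rest of their group, an alternative chosen after seeing the data, gave 9, 1 and 1 list genes at 0.01, 0.1 and 1 µM, among 1048, 84 and 365 features called. With all libraries kept, DESeq2's Wald test also called HSPH1 at 10 µM (adjusted p = 0.0423) and the trend of HSPA8 (0.0302), and limma-voom called HSPB1 at 1000 µM (-0.85, 0.0198). Without the filter HSP90AA1 and BAG3 at 10 µM (adjusted p = 0.0654 and 0.0978), HSF1 at 1000 µM (0.0968), BAG3 from 100 to 1000 µM (0.0665) and HSP90AA1 from 10 to 100 µM (0.145) were no longer called. HSF1 at 1000 µM was also lost in a fit of control and that dose alone (0.158). The causes were not tested.
With each library left out in turn, members called numbered 0 at 0.01, 0.1 and 1 µM in every refit. They ranged from 1 to 3 (10 µM), 6 to 7 (100 µM) and 6 to 9 (1000 µM), 4 to 7 (1000 against 100 µM), 4 to 5 (100 against 10 µM), 8 to 10 (set B), 7 to 8 (trend) and 7 to 9 (joint test). Wider list calls ranged from 7 to 19 (10 µM), 26 to 35 (100 µM), 30 to 34 (1000 µM), 14 to 24 (1000 against 100 µM), 11 to 18 (100 against 10 µM), 29 to 33 (set B), 31 to 38 (trend) and 40 to 45 (joint test), with 0 at the lowest 3 doses in every refit. All features called moved too, from 1039 to 3519 (10 µM), 7104 to 9091 (100 µM), 9272 to 10922 (1000 µM), 6274 to 9324 (1000 against 100 µM), 4434 to 7045 (100 against 10 µM), 10214 to 12165 (set B), 9113 to 10538 (trend), 12348 to 14146 (joint test) and at most 21, 1 and 119 at 0.01, 0.1 and 1 µM. Where an arm was left with 1 library, the lone library was assumed to vary like the other groups.
No pairing by replicate number was seen: in 0 of 21 pairs of groups did every same-numbered pair correlate over 0.1, with mean correlations of -0.181 to 0.165. This check cannot exclude pairing, because the library set also differs between replicates at 1, 100 and 1000 µM. With the replicate number as a block, BAG3 at 10 µM (-0.53, adjusted p = 0.0618), BAG3 from 100 to 1000 µM (-0.44, 0.0604) and HSP90AA1 from 10 to 100 µM (-0.25, 0.0593) were no longer called and HSPA1B within set B was (-1.10, 2.27e-07), by edgeR's quasi-likelihood test. Plain CPM in place of TMM moved 9 of 70 group levels of members by more than 1 SD, and shifted all genes by a median of -0.10 to 0.11 on the log2 scale. The lowest count of a member in a library was 310, for HSPB1.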
